A study of Mus musculus with 12 samples.

Results

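The genes described here are 10 of the 12199 genes in the deposited expression table, chosen by gene symbol as genes that mark natural killer (NK) cells or encode the killing machinery they share with cytotoxic T cells. They comprise the receptor genes Klrb1c, Klrd1, Klrk1 and Ncr1, the granule and effector genes Nkg7, Gzma, Gzmb and Prf1, the cytokine receptor gene Il2rb and the transcription factor gene Tbx21. In the mm10 annotation deposited with the counts, which were read over the exons of whole genes, the members are Klrb1c (chr6:128778485-128788641, minus strand), Klrd1 (chr6:129591811-129598775, plus strand), Klrk1 (chr6:129610323-129623864, minus strand), Ncr1 (chr7:4337724-4345164, plus strand), Nkg7 (chr7:43437138-43438246, plus strand), Gzma (chr13:113093827-113100981, minus strand), Gzmb (chr14:56258858-56262260, minus strand), Prf1 (chr10:61297836-61304263, plus strand), Il2rb (chr15:78480549-78495066, minus strand) and Tbx21 (chr11:97098007-97115331, minus strand). All 10 were present in the table and all 10 passed the filter on low counts. Expression was measured by RNA-Seq of total bone marrow (BM) RNA from 3 WT, 3 DF, 3 TF and 2 TFD C57BL/6 mice, and a further TFD sample was not analysed here. WT mice were wild type at the 3 loci. DF mice were Dnmt3aFlox/+ with MxCre and carried 1 Flt3ITD allele. TF mice were Tet2+/- with 1 Flt3ITD allele, and TFD mice combined Tet2+/-, Dnmt3aFlox/+ with MxCre and 1 Flt3ITD allele. MxCre is switched on by interferon, which was induced in all 4 groups with poly(I:C), a double-stranded RNA mimic. The mice were 8 to 10 weeks old at that point, and analysis followed 8 to 9 weeks later. Every mutant group carried Flt3ITD and no group carried it alone, so that the part of each allele against WT cannot be told apart, and the labels describe the mutant samples as leukemia marrow. MxCre acts in blood-forming cells at large and is not restricted to NK cells, and the TF label names no MxCre.

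NK cells are lymphocytes that kill infected or transformed cells without prior priming. They read the balance of activating and inhibitory receptors, many of them encoded in a single gene cluster, the natural killer gene complex. They then release granules in which perforin opens the target membrane and granzymes enter to start cell death, and they depend on IL-15, which they sense through the receptor chain encoded by Il2rb, and on T-box transcription factors. In BM they are a small fraction of all cells, and in bulk RNA fewer cells of a type and less RNA per cell cannot be told apart.

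Upstream sequences are shown for Gzma, Prf1 and Ncr1, which fell, and for Klrk1 and Gzmb, which rose, to set members with opposite changes side by side. All 5 were chosen among the windows that hold the letters of the RUNX family of lymphoid transcription factors, and the window of Tbx21, which lacks them, is not printed. Of the 10 members, 8 had an entry in the RefSeq promoter table (build GRCm38.p6), and Klrd1 and Il2rb did not. The letters searched on both strands in the 250 bases before the start were TGTGGT (RUNX), TCACACC (T-box), TTCNNNGAA (STAT) and GGAAGT (ETS). The 150 bases next to the start are printed 5′ to 3′ along the gene, in lower case, with matches to any of the 4 in capitals.
Gzma (chr13:113100982-113101131, minus strand): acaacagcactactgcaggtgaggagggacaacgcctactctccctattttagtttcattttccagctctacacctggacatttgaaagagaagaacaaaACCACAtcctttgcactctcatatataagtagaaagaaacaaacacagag
Prf1 (chr10:61297686-61297835, plus strand): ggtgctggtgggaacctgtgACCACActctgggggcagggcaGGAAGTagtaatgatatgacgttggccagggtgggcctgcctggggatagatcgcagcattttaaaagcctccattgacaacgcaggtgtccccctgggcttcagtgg
Ncr1 (chr7:4337574-4337723, plus strand): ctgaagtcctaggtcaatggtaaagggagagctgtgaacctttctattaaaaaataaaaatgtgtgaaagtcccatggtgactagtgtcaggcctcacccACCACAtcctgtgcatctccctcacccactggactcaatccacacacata
Klrk1 (chr6:129623865-129624014, minus strand): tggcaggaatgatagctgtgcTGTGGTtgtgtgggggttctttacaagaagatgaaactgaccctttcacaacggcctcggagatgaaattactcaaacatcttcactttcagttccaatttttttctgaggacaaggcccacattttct
Gzmb (chr14:56262335-56262484, minus strand): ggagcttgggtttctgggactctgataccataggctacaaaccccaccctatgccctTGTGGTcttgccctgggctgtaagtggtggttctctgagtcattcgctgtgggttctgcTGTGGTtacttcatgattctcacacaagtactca
Ncr1 has 2 starts in the promoter table, and the sequence before the downstream start is printed. The RUNX letters lay upstream of 7 of the 8 genes, all but Tbx21, and of 15.9% of all genes in the promoter table. They appeared in the windows of genes that fell in the mutants, such as Gzma, Prf1 and Ncr1, and equally in Gzmb, which rose in DF, and Klrk1, which rose in TF. The ETS letters were found in 3 of the 8 (Klrb1c, Prf1 and Tbx21), against 22.2% of genes. The T-box letters were found in Nkg7 only (3.84% of genes), as were the STAT letters (8.13% of genes). The windows were not chosen independently of these members, and a match describes the letters and no more.

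Library totals over the genes of the table ranged from 8274153 to 15900904 counts, so 1 count was worth 0.0629 to 0.121 CPM (counts-per-million, scaled by TMM factors). Xist, the transcript of the inactive X chromosome of female cells, had 30976 to 42152 counts in WT replicate 3, TF replicate 3 and TFD replicate 2, and Ddx3y, a gene of the Y chromosome, had 3 to 12. The other libraries, all of DF among them, had 18 to 538 counts of Xist and 1040 to 2132 of Ddx3y. Tet2, Dnmt3a and Flt3 were read over the whole gene, which does not check a deletion of single exons: Dnmt3a was at 38.0 to 46.4 CPM in DF and 30.9 to 57.8 CPM in WT, and Tet2 at 136 to 205 CPM in TF and 148 to 169 CPM in WT. In TFD, Dnmt3a was at 54.4 to 58.5 CPM and Tet2 at 163 to 209 CPM, not below WT. Flt3 rose in DF, TF and TFD, by 0.93, 1.38 and 1.94 on the log2 scale (adjusted p = 0.0185, 0.0023 and 0.000552, edgeR). TF replicate 3 stood apart from the other TF libraries, with the highest sum among the mutants for the markers of B cells, T cells, erythroid cells and plasmacytoid dendritic cells (pDC). Neutrophil markers summed to 11772 to 26727 CPM, so the marrow held granulocytes, although the labels name mononuclear cells.

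Most NK cell and cytotoxic effector genes were lower in the mutants than in WT, but a minority rose, namely Gzmb in DF and Klrd1 and Klrk1 in TF. In DF, 6 members fell and 1 rose (edgeR, adjusted p under 0.05), while 16.6% of all genes tested fell and 21.0% rose. In TF, 5 members fell and 2 rose, against 15.6% and 19.0% of all genes. In TFD, 5 members fell and 0 rose, against 11.6% and 14.7%. The median log2 fold change of the 10 members was −0.96 in DF, −0.81 in TF and −1.42 in TFD, beside 0.05, 0.02 and 0.01 over all genes. Gzma, Prf1, Klrb1c and Il2rb fell in each of the 3 comparisons, which share the WT libraries. For 6 members, these 4 with Ncr1 and Tbx21, each of the 8 mutant libraries lay below each WT library, an arrangement seen in 11.8% of all genes. Nkg7 did not pass the test in any comparison, although 1 of 19 alternative fits called it higher in DF. The number of members called was 4 in DF without DF replicate 2 and 2 in TFD without TFD replicate 1.

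**Figure D1:**
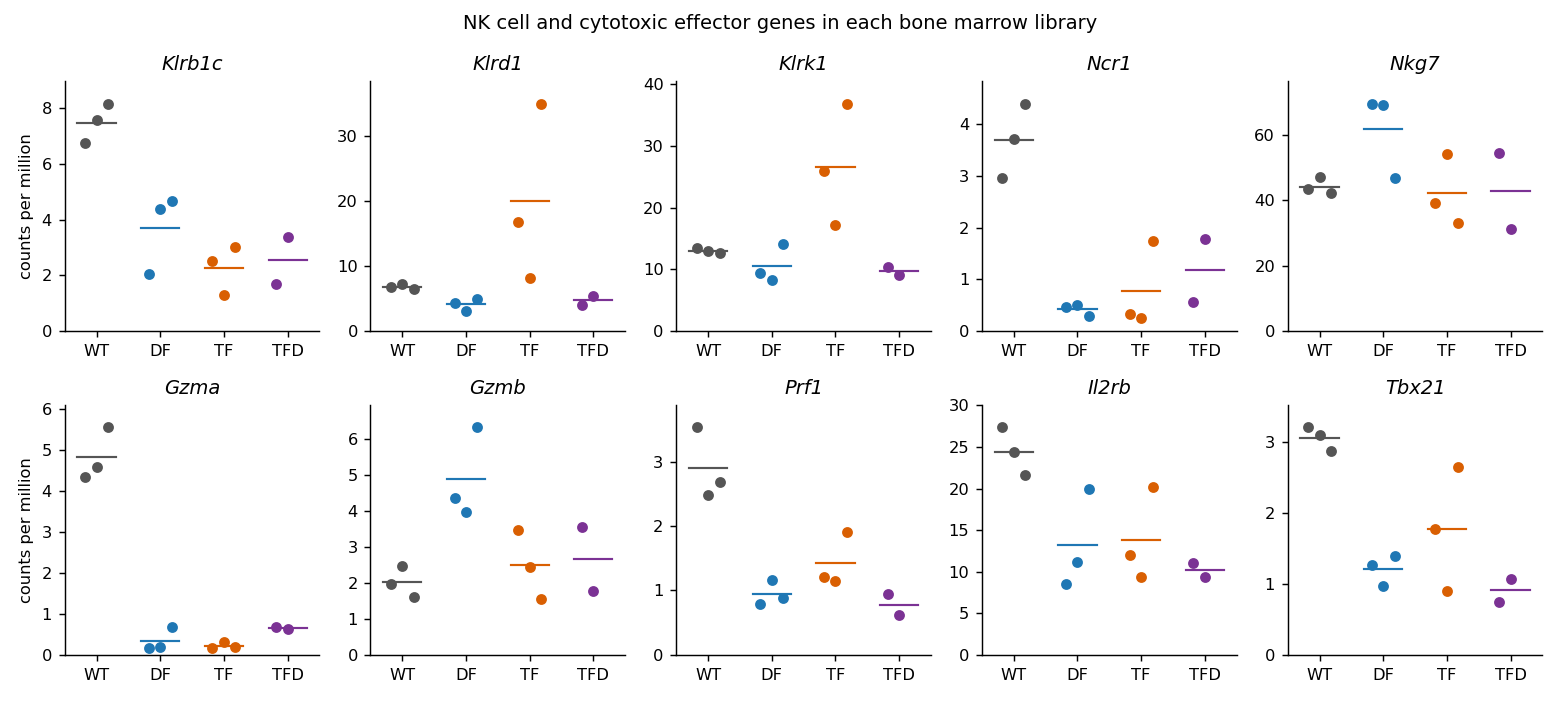
Expression of the 10 members in CPM (vertical axis, starting at 0) in each library, with 1 point per mouse and a line at the group mean; groups are WT (3), DF (3), TF (3) and TFD (2). Klrb1c, Ncr1, Gzma, Prf1, Il2rb and Tbx21 sit lower in all 8 mutant libraries than in WT, whereas Klrd1 and Klrk1 are highest in TF and Gzmb in DF.

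**Figure D2:**
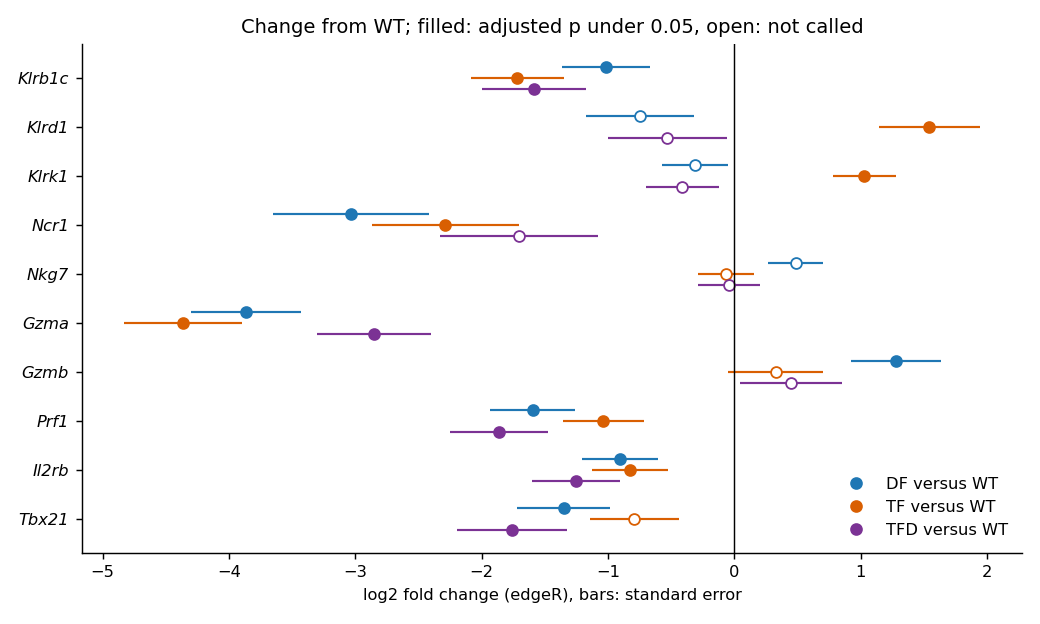
Log2 fold change from WT (horizontal axis) of each member in DF, TF and TFD, with the standard error derived from the edgeR F statistic. Filled points passed an adjusted p under 0.05. Gzma shows the lowest value in each genotype, from −4.36 in TF to −2.85 in TFD, and Klrd1 and Klrk1 lie above 0 in TF only.

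Among the receptors, Ncr1, which encodes the activating receptor NKp46 and is expressed almost only in NK cells and related innate lymphoid cells, fell most in DF and TF. Ncr1 was at 2.96, 3.71 and 4.39 CPM in WT replicates 1 to 3, at 0.476, 0.515 and 0.297 CPM in DF, at 0.323, 0.245 and 1.73 CPM in TF, and at 0.563 and 1.78 CPM in TFD. All mutant values were below the lowest WT value, and TF replicate 3 and TFD replicate 2, the mutant libraries with high Xist, were several times above the other mutant libraries, and the highest WT value was also in the library with high Xist. The log2 fold change from WT was −3.03 ± 0.62 (SE) in DF (adjusted p = 0.00231, edgeR), −2.29 ± 0.58 in TF (adjusted p = 0.0092, edgeR) and −1.71 ± 0.63 in TFD, which did not pass (adjusted p = 0.0616, edgeR). The TFD value passed without TF replicate 2, TF replicate 3 or TFD replicate 2 (lowest adjusted p = 0.00811, edgeR), and it ran from −2.68 without TFD replicate 2 to −1.04 without TFD replicate 1. With a term for high Xist in the fit, Ncr1 was at −2.59 ± 0.47 in DF, −2.47 ± 0.43 in TF and −2.02 ± 0.46 in TFD (adjusted p = 0.00118, 0.000837 and 0.0058, edgeR), so that all 3 passed. Without TF replicate 3, the TF value was −3.65 ± 0.55 (adjusted p = 0.000192, edgeR).

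Klrb1c encodes the surface receptor that serves as the common NK marker of C57BL/6 mice. It was at 6.73, 7.55 and 8.15 CPM in WT, at 2.06, 4.38 and 4.65 CPM in DF, at 2.50, 1.31 and 3.01 CPM in TF and at 1.69 and 3.39 CPM in TFD. No mutant library reached the lowest WT library. Klrb1c fell by 1.02 ± 0.35 on the log2 scale in DF (adjusted p = 0.0364, edgeR), by 1.72 ± 0.37 in TF (adjusted p = 0.00341, edgeR) and by 1.59 ± 0.41 in TFD (adjusted p = 0.0134, edgeR). The DF call was lost without DF replicate 1 or 2 or without any 1 of the WT libraries (adjusted p from 0.0501 to 0.125, edgeR). It was also lost with the term for high Xist, at −0.83 ± 0.33 (adjusted p = 0.0647, edgeR), whereas the TF and TFD calls held there. No DF library had high Xist. The TFD call was lost without TFD replicate 1, where the value was −1.14. The annotated span of Klrb1c is shared on the same strand with Gm44511 in GENCODE M21, and no other member overlaps another annotated gene there. The counts were made on refGene genes, and an effect of this overlap on the Klrb1c counts was not tested.

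Klrd1 and Klrk1 did not follow these receptors. Klrd1 encodes CD94, the partner chain of the NKG2 receptors that bind the MHC class I-like protein of H2-T23, and it was at 6.73, 7.18 and 6.54 CPM in WT, 4.29, 3.09 and 4.95 CPM in DF, 16.8, 8.10 and 34.9 CPM in TF and 4.06 and 5.44 CPM in TFD. The TF libraries were all above the WT libraries. The DF and TFD libraries were all below them, but neither difference passed the test, and the share of all genes lying so was not counted. Klrk1, which encodes the activating receptor NKG2D for stress-induced ligands, was at 13.46, 12.99 and 12.62 CPM in WT, 9.37, 8.30 and 14.2 CPM in DF, 26.0, 17.2 and 36.8 CPM in TF and 10.4 and 9.18 CPM in TFD. Here DF replicate 3 exceeded WT, while both TFD libraries lay below WT, as for Klrd1. Only the TF libraries were separate from all others. Each TF library was above each WT library in 26.1% of all genes and above each DF library in 12.1%.

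Klrd1 rose in TF (log2 fold change 1.55 ± 0.40, adjusted p = 0.00982, edgeR), as did Klrk1 (1.03 ± 0.25, adjusted p = 0.00731, edgeR). Neither passed the test in DF, where the values were −0.74 ± 0.43 and −0.31 ± 0.26 (adjusted p = 0.188 and 0.365, edgeR), or in TFD, where they were −0.53 ± 0.47 and −0.41 ± 0.29 (adjusted p = 0.444 and 0.328, edgeR). Of 19 alternative fits, 2 called Klrd1 lower in DF, 1 of them with a library left out (adjusted p = 0.0478, edgeR). TF replicate 3 carried much of the size: without it, the TF values were 0.87 ± 0.28 for Klrd1 (adjusted p = 0.0282, edgeR) and 0.73 ± 0.22 for Klrk1 (adjusted p = 0.0212, edgeR). These were the only members called between the double mutants. Klrd1 was lower in DF than in TF by −2.29 ± 0.41 (adjusted p = 0.008, edgeR) and Klrk1 by −1.34 ± 0.25 (adjusted p = 0.01, edgeR), where 4.27% of all genes tested were lower in DF and 1.67% higher. Without TF replicate 3 the differences were −1.62 ± 0.29 and −1.04 ± 0.22 and both passed, whereas without DF replicate 2 neither did (adjusted p = 0.0607 and 0.0687, edgeR).

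Markers of pDC were also lower in DF than in TF. The 7 markers of the list (Siglech, Ccr9, Ly6d, Bst2, Tcf4, Klk1 and Pacsin1) summed to 212 to 247 CPM in WT, 67.997 to 77.55 CPM in DF, 132 to 374 CPM in TF and 84.8 to 137 CPM in TFD. Of the 7, 6 were lower in DF than in TF and 6 were lower in DF than in WT, and Klk1 had 0 counts in DF replicates 2 and 3. The order of the 3 TF libraries was the same for the sum, Klrd1 and Klrk1. TF replicates 1 and 2 were at 169 and 132 CPM for the sum, below every WT library, whereas both receptors were above every WT library there. The part of these cells in the Klrd1 and Klrk1 values was not tested.

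**Figure D3:**
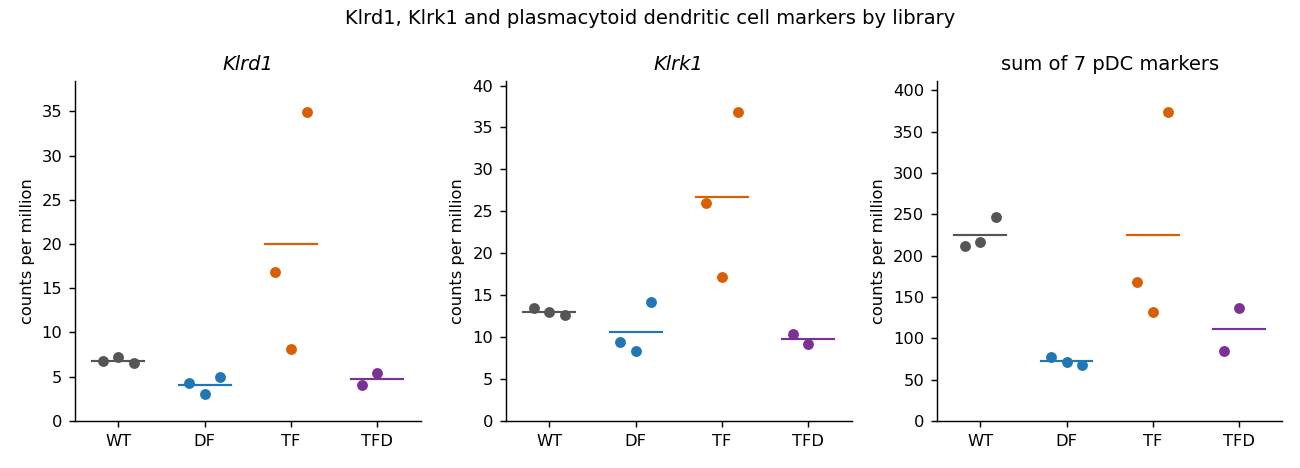
Level in CPM of Klrd1, of Klrk1 and of the sum of 7 pDC markers in each library (axes start at 0; 1 point per mouse, line at the group mean). TF replicate 3 is the highest of the 11 libraries in all 3 panels, at 34.9, 36.8 and 374 CPM, and all TF libraries exceed WT for both receptors but not for the marker sum.

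The composition of receptor transcripts differed from WT within the group of 4. Klrd1 and Klrk1 together made up 60.5% to 67.6% of the summed receptor CPM in WT, 70.0% to 84.3% in DF, 93.8% to 94.2% in TF and 73.9% to 86.5% in TFD. There were 1.49 to 2.28 Klrd1 counts per Ncr1 count in WT, 6.00 to 16.7 in DF, 20.2 to 52.0 in TF and 3.05 to 7.22 in TFD. These measures were chosen after their values were seen. No mutant library overlapped WT in either. There were 1.81 to 2.0 Klrk1 counts per Klrd1 count in WT, 2.19 to 2.86 in DF, 1.05 to 2.12 in TF and 1.69 to 2.55 in TFD. In that ratio the DF libraries were above WT, and the TF and TFD libraries lay on both sides of WT. The spread of the Klrd1 to Ncr1 ratio in the mutants includes Ncr1 values of 3 to 20 counts.

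Klrb1c, Klrd1 and Klrk1 lie in the natural killer gene complex on chromosome 6 (mm10, chr6:128778485-130233322, from Klrb1c to Klra7), where Klrd1 (plus strand) and Klrk1 (minus strand) are 11547 bases apart. Of the 26 genes of the table in this interval, 11 are Klr genes, the lectin-like receptor family, and 15 are others, most of them Clec genes. In DF, 1 of the 11 Klr genes rose and 4 fell, with a median log2 fold change of −0.74, while 8 of the 15 others rose and 1 fell, with a median of 0.79. In TF, 3 Klr genes rose and 2 fell (median −0.38), and 10 others rose and 2 fell (median 0.95). In TFD, 1 Klr gene rose and 3 fell (median −1.13), and 8 others rose and 2 fell (median 1.15). Of all genes tested, 21.0% rose and 16.6% fell in DF, 19.0% and 15.6% in TF, and 14.7% and 11.6% in TFD. Their median log2 fold changes were 0.05, 0.02 and 0.01. The 11 Klr genes include the members Klrb1c, Klrd1 and Klrk1, and the latter 2 are among those that rose in TF. Klrb1f was the Klr gene that rose in all 3, by 2.46 ± 0.21 in DF (adjusted p = 7.96e-06, edgeR). Klri2 fell in DF (−2.25, adjusted p = 0.001, edgeR) and was lower there than in TF. Clec9a, a receptor of cross-presenting dendritic cells chosen here after its values were seen, lies in the same interval and rose in TF (2.88, adjusted p = 0.000193, edgeR) and was at 0.21 in DF (adjusted p = 0.707, edgeR).

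**Figure D4:**
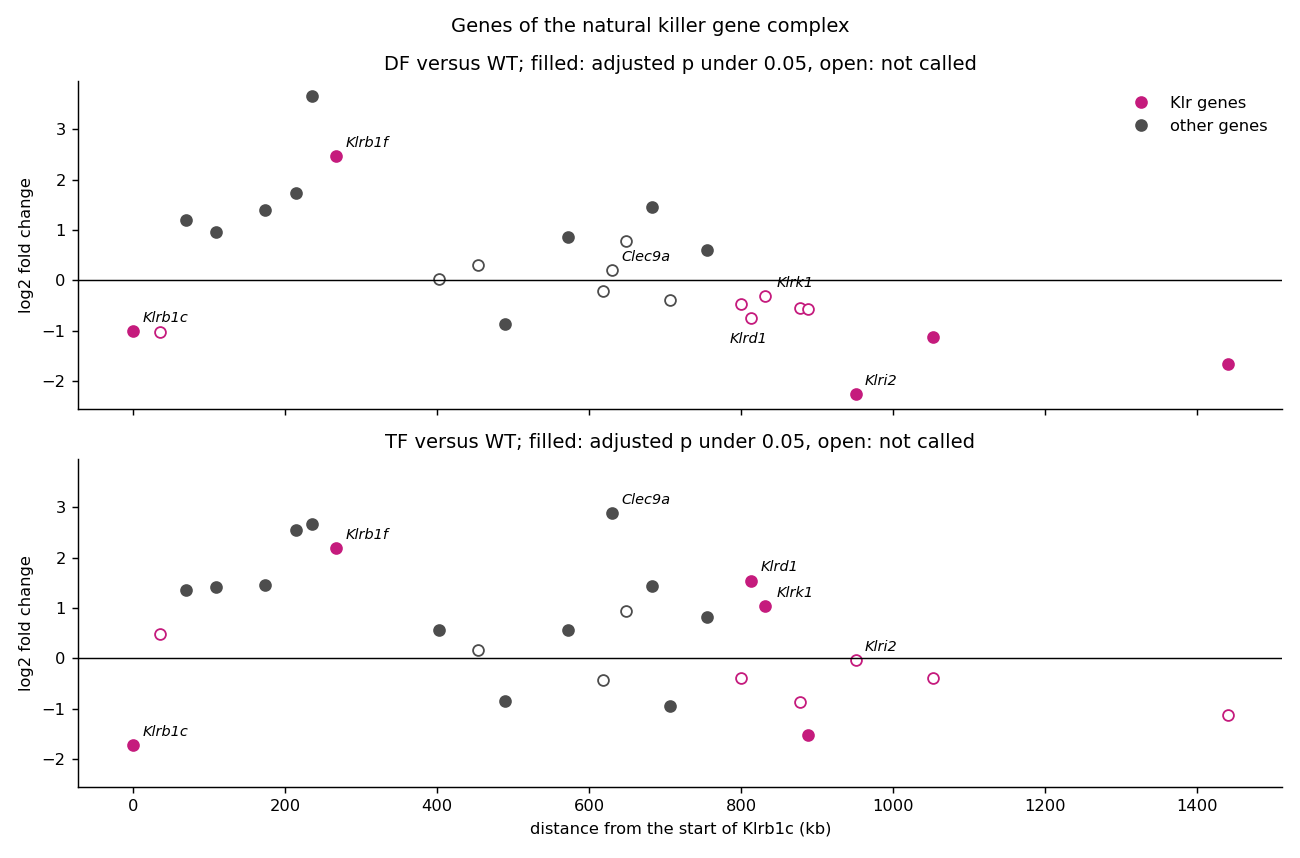
Log2 fold change from WT (vertical axis) of the 26 genes of the natural killer gene complex against distance from the start of Klrb1c in kilobases, for DF and TF; filled points passed an adjusted p under 0.05. Klr genes and other genes are colored apart: in DF most Klr genes lie below 0, and in TF Klrd1 and Klrk1 lie above it, at 1.55 and 1.03.

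Among the granule genes, the granzymes moved in opposite directions in DF. Gzma encodes granzyme A, a trypsin-like protease of killer cell granules, and was at 4.35, 4.58 and 5.55 CPM in WT, 0.159, 0.193 and 0.693 CPM in DF, 0.162, 0.327 and 0.182 CPM in TF and 0.688 and 0.624 CPM in TFD. These are 37 to 62 counts per WT library and 2 to 11 counts per mutant library. The lowest WT library was thus far above every mutant library. Gzma fell by 3.87 ± 0.44 on the log2 scale in DF (adjusted p = 4.22e-05, edgeR), by 4.36 ± 0.46 in TF (adjusted p = 3.24e-05, edgeR) and by 2.85 ± 0.45 in TFD (adjusted p = 0.000655, edgeR). The call held with each library left out in turn in all 3 comparisons.

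Gzmb encodes granzyme B, the protease that cleaves at aspartate and activates caspases. Gzmb was at 1.97, 2.48 and 1.61 CPM in WT, 4.37, 3.99 and 6.33 CPM in DF, 3.47, 2.45 and 1.55 CPM in TF and 3.56 and 1.78 CPM in TFD. All DF libraries were above all WT libraries, as in 28.8% of all genes, and the TF libraries lay from just below to above the WT range, and the TFD libraries within and above it. Gzmb rose in DF (log2 fold change 1.28 ± 0.36, adjusted p = 0.0137, edgeR) and was at 0.33 ± 0.37 in TF and 0.45 ± 0.40 in TFD (adjusted p = 0.521 and 0.45, edgeR). The DF call was lost without DF replicate 3 or WT replicate 3 (adjusted p = 0.0588 and 0.0648, edgeR). The difference between DF and TF was 0.95 ± 0.34 and did not pass (adjusted p = 0.136, edgeR).

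Within libraries, there were 0.290 to 0.541 Gzmb counts per Gzma count in WT, 9.14 to 27.5 in DF, 7.50 to 21.5 in TF and 2.86 to 5.18 in TFD. Gzma was the more abundant granzyme transcript by count in all 3 WT libraries and Gzmb in all 8 mutant libraries. Per kilobase of gene length, which allows levels of different genes to be compared, mean Gzma was 5.50 and mean Gzmb 1.43 CPM per kilobase in WT, against 0.397 and 3.46 in DF, 0.255 and 1.76 in TF and 0.747 and 1.89 in TFD.

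**Figure D5:**
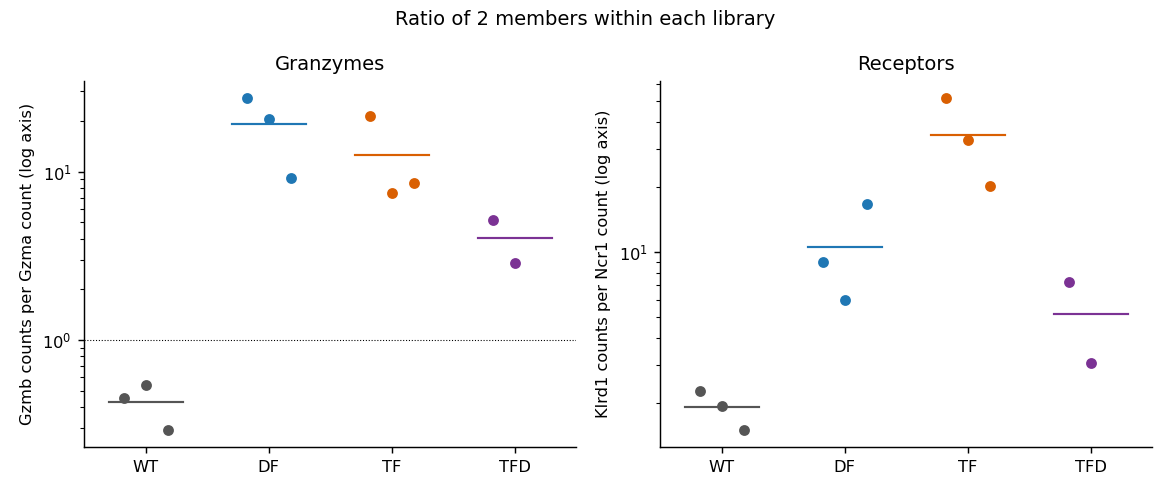
Ratio of the counts of 2 members within each library on log axes: Gzmb per Gzma (left, dotted line at 1) and Klrd1 per Ncr1 (right), with 1 point per mouse and a line at the group mean. WT libraries lie below 1 for the granzymes, between 0.290 and 0.541, and all mutant libraries lie above it.

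Prf1 encodes perforin, the pore-forming protein without which granzymes do not reach the target cytosol. It was at 3.53, 2.48 and 2.69 CPM in WT, 0.794, 1.16 and 0.891 CPM in DF, 1.21, 1.15 and 1.92 CPM in TF and 0.938 and 0.624 CPM in TFD, with no overlap between mutants and WT. Prf1 fell by 1.60 ± 0.33 in DF (adjusted p = 0.00268, edgeR), by 1.04 ± 0.32 in TF (adjusted p = 0.0246, edgeR) and by 1.86 ± 0.39 in TFD (adjusted p = 0.0039, edgeR). Only the TF call was lost by leaving out a library, namely TF replicate 1, TF replicate 2 or WT replicate 1 (adjusted p from 0.0874 to 0.0901, edgeR).

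Nkg7, which encodes a granule membrane protein required for full degranulation, had the highest level of the 10. It was at 43.4, 46.9 and 42.2 CPM in WT, 69.4, 69.1 and 46.6 CPM in DF, 39.2, 54.1 and 33.0 CPM in TF and 54.2 and 31.3 CPM in TFD. Mutant libraries lay on both sides of WT in TF and TFD, and DF replicate 3 was within the WT range. The log2 fold changes of 0.49 ± 0.22 in DF, −0.07 ± 0.22 in TF and −0.04 ± 0.25 in TFD did not pass the test (adjusted p = 0.0988, 0.84 and 0.927, edgeR). Of the summed level per kilobase of the 10 members, Nkg7 made up 60.3% in WT and 55.8% in TF, and its share was 79.7% in DF and 75.2% in TFD. As a log2 ratio to the summed receptor CPM, Nkg7 was at 0.41 to 0.58 in WT, 0.95 to 2.10 in DF, −1.21 to 1.01 in TF and 0.66 to 1.70 in TFD.

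Il2rb encodes the β chain shared by the IL-2 and IL-15 receptors. Il2rb was at 27.3, 24.4 and 21.6 CPM in WT, 8.49, 11.1 and 19.9 CPM in DF, 11.96, 9.41 and 20.2 CPM in TF and 11.1 and 9.36 CPM in TFD. The third DF and TF libraries came close to the lowest WT library without reaching it. It fell by 0.91 ± 0.30 in DF (adjusted p = 0.0313, edgeR), by 0.82 ± 0.30 in TF (adjusted p = 0.0488, edgeR) and by 1.25 ± 0.35 in TFD (adjusted p = 0.0183, edgeR). Single libraries ended these calls when left out, namely 4 of 11 libraries in DF (DF replicates 1 and 2, WT replicates 1 and 2), 8 of 11 in TF (all but DF replicates 1 and 3 and TF replicate 3) and both TFD libraries in TFD (adjusted p from 0.0518 to 0.164, edgeR).

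Tbx21 encodes T-bet, the T-box factor of NK cell maturation and of interferon-γ production. It was at 3.20, 3.09 and 2.86 CPM in WT, 1.27, 0.965 and 1.39 CPM in DF, 1.78, 0.900 and 2.65 CPM in TF and 0.750 and 1.07 CPM in TFD. All mutant libraries were below WT, with TF replicate 3 nearest to it. Tbx21 fell by 1.35 ± 0.37 in DF (adjusted p = 0.012, edgeR) and by 1.76 ± 0.43 in TFD (adjusted p = 0.0097, edgeR), and was at −0.79 ± 0.35 in TF (adjusted p = 0.101, edgeR). The DF call was lost without DF replicate 2 (adjusted p = 0.0568, edgeR) and the TFD call without TFD replicate 1 (adjusted p = 0.084, edgeR), and without TF replicate 3 the TF value of −1.18 passed. Relative to the summed receptor CPM, of which Klrd1 and Klrk1 make up most, above all in TF, the log2 ratio of Tbx21 was −3.47 to −3.22 in WT and −4.90 to −3.67 in the mutants, and that of Prf1 was −3.67 to −3.08 in WT and −5.32 to −3.81 in the mutants. The same ratio of Il2rb overlapped, at −0.55 to −0.13 in WT and −1.93 to −0.27 in the mutants. That of Gzmb was −4.30 to −3.67 in WT and higher in DF (−2.03 to −1.89) and TFD (−3.47 to −2.23). In TF it ran from below to above WT, at −5.63 to −3.45.

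In the order of levels per kilobase in WT, Nkg7 (54.3 CPM per kilobase) was followed by Il2rb (9.06), Klrd1 (7.87), Gzma (5.50), Klrk1 (3.90), Klrb1c (2.84), Ncr1 (2.52), Gzmb (1.43), Prf1 (1.41) and Tbx21 (1.197). Neighbors whose WT libraries overlapped were Il2rb and Klrd1, Klrb1c and Ncr1, Gzmb and Prf1, and Prf1 and Tbx21. By its mean, Gzma had the fourth place in WT, the ninth in DF, the tenth in TF and the eighth in TFD, and Gzmb had the eighth place in WT, the fourth in DF and the fifth in TF and TFD. In each mutant group, the libraries of both granzymes overlapped those of at least 1 neighbor in the order, so these places are not resolved. Klrd1 had the second place in TF, where it overlapped Klrk1, and in TFD, where it was apart from its neighbors.

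Between the triple mutant and TF, the calls depended on the tool. No member passed in TFD versus DF (edgeR; 1 at an unadjusted p under 0.05, 0 with DESeq2 and limma), where edgeR called 0.0% of all genes, DESeq2 2.12% and limma 0.0%. No member passed in TFD versus TF (edgeR; 4 at an unadjusted p under 0.05, 2 with DESeq2, 0 with limma), where edgeR called 0.0164% of all genes, DESeq2 1.08% and limma 0.0329%. No member passed in TFD against the average of the double mutants (edgeR; 2 at an unadjusted p under 0.05, 0 with DESeq2 and limma), where the shares were 0.0164%, 0.542% and 0.0246%. The 2 members called by DESeq2 in TFD versus TF were Klrd1 (−2.07 ± 0.47 and adjusted p = 0.191 with edgeR, 0.00177 with DESeq2) and Klrk1 (−1.44 ± 0.29 and adjusted p = 0.191 with edgeR, 0.00116 with DESeq2). EdgeR called 2 members when TF replicate 2 was left out. Both TFD libraries were below all TF libraries for Klrd1, Klrk1 and Prf1 (−0.82 ± 0.40, adjusted p = 0.602, edgeR), as in 1461 of the 12175 genes tested, and above them for Gzma (1.51 ± 0.61, adjusted p = 0.512, edgeR), as in 10.3%. Against DF, both TFD libraries were above all DF libraries for Ncr1 (1.33 ± 0.74, adjusted p = 0.445, edgeR), as in 14.1% of all genes, and below them for Gzmb (−0.83 ± 0.38, adjusted p = 0.35, edgeR), as in 15.0%.

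Other genes of NK biology were read from 7 lists that together held 136 genes, of which 103 were in the table. Of these 103, 24 rose and 30 fell in DF, 24 rose and 23 fell in TF, and 18 rose and 25 fell in TFD. Over all genes tested, 21.0% rose and 16.6% fell in DF, 19.0% and 15.6% in TF, and 14.7% and 11.6% in TFD. Of 17 other NK receptor genes, 2 rose and 5 fell in DF, 3 and 2 in TF, and 2 and 3 in TFD; in TFD the values ran from Slamf6, a receptor of lymphocytes (−3.39, adjusted p = 0.000264, edgeR), to Klrb1f (2.42, adjusted p = 1.52e-05, edgeR). Of 15 receptor signalling genes, 6 rose and 5 fell in DF, 3 and 3 in TF, and 3 and 5 in TFD, from the adaptor gene Sh2d2a (−1.92) to Sh2d1b1, which encodes the adaptor EAT-2 (1.23).

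Of 21 further granule and effector genes, 7 rose and 6 fell in DF, 5 and 5 in TF, and 3 and 7 in TFD. Their extremes in TFD were Ifng, the signature cytokine of NK cells (−2.20, adjusted p = 0.00318, edgeR), and Mpeg1, which encodes the perforin-like protein of macrophages (1.18, adjusted p = 7.8e-05, edgeR). Ifng was at 50, 21 and 38 counts in WT and 8 to 24 counts in the mutants, and it fell in all 3 comparisons, by 1.93 in DF and 1.12 in TF. The members of the list that rose in DF include Ctsc, which encodes the protease that activates granzymes and also neutrophil serine proteases (1.08), and Lamp1 (0.97), both used outside killer cells. Of the list, Srgn was higher and Serpinb9, an inhibitor of granzyme B, lower in DF than in TF.

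Of 15 other NK transcription factor genes, 1 rose and 7 fell in DF, 2 and 5 in TF, and 2 and 5 in TFD. Eomes, the other T-box factor of NK cells, was at 49, 31 and 48 counts in WT and at 9 to 28 counts in the mutants, and it fell by 1.62 in DF, 1.22 in TF and 1.66 in TFD (adjusted p = 0.00336, 0.0154 and 0.00868, edgeR); it was singled out after its values were seen. The extremes in TFD were Ikzf3 (−3.71), a factor of B and NK cells, and Zeb2 (0.99), which monocytes also use. Zbtb32 was the gene of this list called between DF and TF, with 2 to 3 counts in DF and 10 to 42 counts in TF. Of 16 cytokine receptor and ligand genes, 3 rose and 6 fell in DF and in TF, and 3 rose and 5 fell in TFD, from Il2ra (−3.34) to Il12rb2 (1.21). Il12rb2, a chain of the IL-12 receptor, rose in TF and TFD and was lower in DF than in TF. Il2rg, the chain that pairs with the product of Il2rb, fell in DF (−0.998, adjusted p = 0.01, edgeR). Its values of −0.41 in TF and −0.71 in TFD did not pass (adjusted p = 0.23 and 0.0943, edgeR).

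Of 12 trafficking genes, 3 rose and 1 fell in DF, 4 and 2 in TF, and 2 and 0 in TFD, from Cxcr6 (−1.24, adjusted p = 0.0681, edgeR) to Cx3cr1 (2.29), a chemokine receptor shared with monocytes. Itga2, which encodes the integrin chain CD49b used as an NK marker, fell in DF (−1.37) and TF (−1.89). Its value of −0.98 in TFD did not pass (adjusted p = 0.0871, edgeR). Of 7 ligand genes of NK receptors, 2 rose in DF, 4 in TF and 3 in TFD, and 0 fell; Cd48 was at 1.41 and Clec2d at −0.16 in TFD. H2-T23, whose product is the ligand of the Klrd1 receptor, rose in all 3, by 0.39, 0.92 and 0.56, and was lower in DF than in TF.

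T cells express most of these members too. Of 13 T cell markers, 9 fell in DF, 3 in TF and 6 in TFD, and 0 rose, and the list summed to 114 to 143 CPM in WT, 59.5 to 73.1 CPM in DF, 68.2 to 131 CPM in TF and 41.97 to 61.22 CPM in TFD. The median log2 fold change of the list was −1.47 in DF, −0.26 in TF and −1.45 in TFD, and in TFD it ran from Themis (−3.32) to Ubash3a (−0.32); none of the 13 was at 0 counts in any library. Of 5 markers of innate lymphoid cells of types 2 and 3, 1 rose and 2 fell in each comparison, from Il7r (−3.49) to Ahr (1.19) in TFD. The part of T cells and of other lymphoid cells in the fall of the members was not tested.

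The remaining marker lists give the cellular setting in the same libraries. Of 10 B cell markers, 10 fell in DF and TFD and 9 in TF, with Cd79b at −3.14 and Pax5 at 0 and 3 counts in TFD. Of 4 erythroid markers, 4 fell in each comparison, from Klf1 (−2.78) to Rhd (−2.18) in TFD. Of 5 monocyte markers, 5 rose in DF and TF and 4 in TFD, with Ccr2 at 2.35 and Ly6c2 at 0.56 in TFD. Of 7 basophil and mast cell markers, 5 fell in TF, and the values that did not pass ran from Fcer1a (−0.63) to Prss34 (−0.01) in DF and from Fcer1a (−0.90) to Prss34 (0.01) in TFD. Of 7 neutrophil markers, 2 rose in DF, 2 fell in TF and 1 rose in TFD (Mpo 0.85, Mmp8 −0.78). Of 4 stem and progenitor markers, 1 rose in each comparison, namely Cd34 (1.79 in TFD, with Hlf at −0.26). Of the 7 pDC markers, 1 rose and 1 fell in TF and 3 fell in TFD, from Ly6d (−4.34) to Bst2 (−0.05). Monocyte markers were thus higher and B cell and erythroid markers lower in the libraries in which most members were lower, and their part in the members' values was not tested.

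The members did not share a common profile over the libraries. With each gene centred on its mean log2 CPM, the closest pair was Klrd1 and Klrk1 (mean absolute difference 0.295 over the 11 libraries), followed by Prf1 and Il2rb (0.2999) and Il2rb and Tbx21 (0.329). Nkg7 was closest to Gzmb (0.362), and the farthest pair was Ncr1 and Gzmb (1.89). From the mean profile of the members, Il2rb (0.168), Tbx21 (0.267) and Prf1 (0.282) differed least and Gzma (1.25) most. That mean profile was at 0.76 to 0.81 in the WT libraries, −0.56 to −0.08 in DF, −0.54 to 0.29 in TF and −0.44 to −0.38 in TFD, with TF replicate 3 highest among the mutants. The 10 other genes closest to it were Ammecr1 (0.111), Tapt1 (0.122), Tespa1 (0.128), Glcci1 (0.131), Dmxl1 (0.131), Helz2 (0.133), Pik3ap1 (0.134), E130308A19Rik (0.135), Stk17b (0.136) and Orc5 (0.138), of which Tespa1 acts in T cell receptor signalling and Pik3ap1 in B cell receptor signalling.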

How the data were processed

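Total RNA of whole BM was sequenced after globin depletion with a stranded kit. According to the submitters' notes and the study's methods, the authors aligned reads to mm10 with STAR, kept unique alignments and counted them on refGene genes with featureCounts (versions and strand setting not given in the sources used here). The deposited table holds raw counts, log2 CPM and gene length for 12199 genes, which the authors had filtered to CPM over 0.5 in more than 3 samples. The deposited log2 values differed from those computed here by at most 0.000657 for the members.

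Counts of all 11 libraries were fitted together with edgeR 4.0.16 (quasi-likelihood F test, TMM factors, 1 mean per genotype) in R 4.3.3; the same filter, applied again, left 12175 genes, and Benjamini-Hochberg adjustment ran over all of them. The threshold for a call was an adjusted p of 0.05. SE is the standard error of the log2 fold change. It was computed here as the absolute log2 fold change over the square root of the edgeR F statistic. Each p-value tests a difference between genotype means against the spread between libraries of a group, estimated over the groups together. Alternatives were DESeq2 1.42.0, limma 3.58.1 on log2(CPM + 1), library totals, RLE factors, no filter, only the groups compared, at least a 2-fold change, a replicate block, a term for Xist (10000 reads or more) and each library left out. Levels of different genes were compared as CPM per kilobase of deposited length.

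Members and lists were chosen with earlier results of these data known. Named list genes are the extremes of each list in TFD versus WT and those called between mutants; genes outside this rule, such as Ctsc, Lamp1, Il2rg and Itga2, were chosen after their values were seen. Some list genes are not reported here and were left out of the lists' counts. The 10 genes nearest to the members' mean profile had the smallest mean absolute difference in centred log2 CPM. The scripts were tested on simulated data.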

Additional observations from a re-analysis of the deposited data

Results flagged for a closer look

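These genes differed between DF and TF, which means that the change from WT differed between the double mutants by a test of that difference (edgeR, adjusted p under 0.05). Values are log2 fold changes of DF over TF, and 24 of the 29 genes were lower in DF, as were 520 of the 723 genes called over the whole table. Among the members these were Klrd1 (−2.29) and Klrk1 (−1.34). Among other NK receptor and effector genes they were Klri2 (−2.23), Slamf7 (−1.76), Srgn (0.58) and Serpinb9 (−0.74). The transcription factor, cytokine receptor, trafficking and ligand lists gave Zbtb32 (−3.21), Il12rb2 (−1.33), Il18r1 (0.73), Itgam (0.64), Itgax (−1.93) and H2-T23 (−0.52). Lymphoid markers that differed were Cd4 (−1.95), Cd5 (−1.77), Cd22 (−3.11), Il1rl1 (−1.34) and Il7r (−2.22), and pDC markers were Siglech (−5.89), Ccr9 (−3.38), Bst2 (−1.60), Tcf4 (−1.20), Klk1 (−5.57) and Pacsin1 (−4.61). The values of Klk1 rest on 0 counts in 2 DF libraries and are no bound. The myeloid markers were Gata2 (0.92) and Elane (0.69) and the erythroid markers Klf1 (−3.03), Epor (−2.88), Rhd (−2.68) and Ermap (−2.86).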

How the results depend on the processing

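When single libraries were omitted, the number of members called ranged from 4 to 8 in DF versus WT, 5 to 8 in TF versus WT, 2 to 6 in TFD versus WT, 0 to 2 in DF versus TF and 0 to 2 in TFD versus TF, and DESeq2 called 2 members in TFD versus TF. Directions that turned when a library was left out belonged to values that had not passed the test, and their ranges were, in log2 units, for TF versus WT, Nkg7 (−0.29 to 0.079), for TFD versus WT, Nkg7 (−0.50 to 0.30) and Gzmb (−0.16 to 0.84), for DF versus TF, Ncr1 (−1.17 to 0.62), Gzma (−0.35 to 0.86) and Il2rb (−0.51 to 0.28), for TFD versus DF, Klrk1 (−0.26 to 0.18), Prf1 (−0.61 to 0.0026) and Il2rb (−0.57 to 0.089), for TFD versus TF, Klrb1c (−0.41 to 0.58), Ncr1 (−0.38 to 1.93), Nkg7 (−0.43 to 0.38) and Gzmb (−0.49 to 0.52), for TFD versus mean of DF and TF, Klrb1c (−0.75 to 0.23), Ncr1 (−0.0027 to 1.62), Nkg7 (−0.71 to 0.11) and Gzmb (−0.97 to 0.052). With the Xist term Klrd1 was at −0.16 in TFD versus DF, and the Nkg7 log2 fold change, TFD versus TF, was −0.00022 with limma. The causes were not tested.

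With the replicate number as a replicate block, the members called numbered 7, 7, 5 and 2 in DF, TF and TFD versus WT and in DF versus TF, as without it, and 0 in the comparisons of TFD with the double mutants; Klrk1 turned to 0.079 in TFD versus DF and Nkg7 to −0.093 in TFD versus TF. Libraries with the same number had a median correlation of their deviations of 0.0293 (−0.299 to 0.247) and those with other numbers −0.0120 (−0.225 to 0.299), so the numbers were not taken as pairs. Scaling by library totals moved the share of higher genes among all calls from 55.9% to 42.3% in DF versus WT and from 28.1% to 13.9% in DF versus TF. In a fit of WT and TF alone, Gzma was removed by the low-count filter. Counts of 2 to 11 for Gzma, and of 3 to 20 for Ncr1, in the mutant libraries limit the precision of their folds.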

Other observations

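Of the genes whose centred log2 CPM lay closest to each member, 1 or 2 are named; they were picked after their values were seen, and the mean absolute difference over the 11 libraries is given in log2 units. Il2rb was closest to Cd3d (0.192), a chain of the T cell receptor complex, and Ctsw (0.194), a cathepsin of cytotoxic cells. Tbx21 was closest to Lck (0.217), the kinase of T cell receptor signalling. Klrk1 was closest to Mndal (0.200) and Irf7 (0.216), the latter an interferon regulatory factor, and Klrd1 to Runx2 (0.273). Runx2 and Irf7 were among the 5 nearest genes of both, at 0.226 from Klrk1 and 0.306 from Klrd1, respectively. Nkg7 was closest to Tuba4a (0.107) and Serpinb1a (0.126), the latter an inhibitor of neutrophil proteases. Klrb1c was closest to Adcy10 (0.244) and Xcl1 (0.301), Ncr1 to Grb10 (0.282), Gzmb to 2010310C07Rik (0.192) and Prf1 to Slc39a8 (0.201). Gzma had no gene nearer than Arpp21 (0.545).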
